A study of Mus musculus with 6 samples.

Results

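The clustered histone genes were followed in 4 RNA-seq libraries of mouse bone marrow cells. They were chosen by symbol: every gene whose symbol begins with Hist1h, Hist2h, Hist3h or Hist4h and that was listed above 0 FPKM (fragments scaled to gene length and to library size, so that it is a level per length) in at least 1 library. The rule found 57 of the 30409 genes listed, and 1 further symbol of this kind, Hist1h2al, was listed at 0 in all 4 libraries. By histone type there were 5 genes for H1, 15 for H2A, 15 for H2B, 10 for H3 and 12 for H4. By locus, 48 belonged to Hist1, 5 to Hist2, 3 to Hist3 and 1 to Hist4, and 54 were annotated by RefSeq as protein coding. Hist2h2ab, an H2A gene, passed the rule through 1 library only, with 0.0892 FPKM in steady-state cKO cells. The lowest highest value was that of Hist1h2br, an H2B gene, at 0.0408 FPKM.

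The cells had been sorted from bone marrow of C57BL/6 mice as long-term haematopoietic stem cells (Lineage−Sca1+cKit+CD34−Flk2−), the rare cells that sustain blood formation. The groups, each of 1 library, were Twist1 cKO mice 12 days after irradiation, wild-type mice 12 days after irradiation, Twist1 cKO mice at steady state and wild-type mice at steady state. Twist1 is a transcription factor of the basic helix-loop-helix family, and cKO stands for its conditional knockout. The sources used here do not give the driver of the deletion, the radiation dose or the number of mice per library. With 1 library per group no difference below has a replicate check, no p-value is given, and intervals cover counting error only.

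Histones H2A, H2B, H3 and H4 form the core around which DNA is wrapped, and the linker histone H1 binds where the DNA enters and leaves that core. The clustered genes supply most new histones while DNA is copied, and their mRNAs typically end in a stem-loop that the protein Slbp binds, in place of a poly(A) tail; some of these genes also give polyadenylated mRNA. Many H2A and H2B genes lie head to head and share the stretch between them as a promoter. The labels speak of total RNA and do not say how RNA was selected, and which of the mRNA forms the libraries captured was not tested.

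The promoter windows of 5 of the genes are shown here because the results turn on them: Hist1h2ae differed between the genotypes in the opposite direction to its neighbour Hist1h2bg, the linker histone genes Hist1h1e, Hist1h1c and Hist1h1b differed between conditions in opposite directions, and Hist1h4d was the leading H4 gene. Each window runs from 250 bases before to 50 bases after the gene's start in RefSeq (GRCm38.p6), 5′ to 3′ on the gene's strand. Capitals mark matches on either strand. For the TATA box the letters searched were TATAAA. The CCAAT box was searched by its name, the octamer known from histone promoters as ATTTGCAT, and the element of H1 promoters known as the AC box as AAACACA.
Hist1h2ae (chr13:23571171-23571470, minus strand): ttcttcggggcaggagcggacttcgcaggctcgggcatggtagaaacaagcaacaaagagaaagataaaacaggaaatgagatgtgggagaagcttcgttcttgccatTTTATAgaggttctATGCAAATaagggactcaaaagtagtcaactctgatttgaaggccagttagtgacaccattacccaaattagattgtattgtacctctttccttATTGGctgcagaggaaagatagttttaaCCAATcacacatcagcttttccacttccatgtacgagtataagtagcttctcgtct
Hist1h1e (chr13:23622509-23622808, minus strand): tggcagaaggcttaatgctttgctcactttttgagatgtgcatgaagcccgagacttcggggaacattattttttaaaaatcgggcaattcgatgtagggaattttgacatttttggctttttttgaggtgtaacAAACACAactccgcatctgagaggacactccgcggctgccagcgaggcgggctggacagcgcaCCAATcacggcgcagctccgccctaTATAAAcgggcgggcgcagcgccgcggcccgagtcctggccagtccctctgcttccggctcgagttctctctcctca
Hist1h1b (chr13:21780576-21780875, minus strand): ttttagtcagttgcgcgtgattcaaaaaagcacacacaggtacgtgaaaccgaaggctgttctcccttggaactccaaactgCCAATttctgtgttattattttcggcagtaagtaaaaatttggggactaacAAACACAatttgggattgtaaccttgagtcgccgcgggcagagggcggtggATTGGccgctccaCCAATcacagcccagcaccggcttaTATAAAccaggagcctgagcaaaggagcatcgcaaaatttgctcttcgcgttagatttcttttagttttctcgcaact
Hist1h1c (chr13:23738557-23738856, plus strand): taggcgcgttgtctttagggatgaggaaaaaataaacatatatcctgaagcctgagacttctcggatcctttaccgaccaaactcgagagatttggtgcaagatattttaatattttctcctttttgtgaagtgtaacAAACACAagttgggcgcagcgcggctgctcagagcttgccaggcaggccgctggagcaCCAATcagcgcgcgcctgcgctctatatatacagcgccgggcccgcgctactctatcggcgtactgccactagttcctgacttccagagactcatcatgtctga
Hist1h4d (chr13:23581318-23581617, plus strand): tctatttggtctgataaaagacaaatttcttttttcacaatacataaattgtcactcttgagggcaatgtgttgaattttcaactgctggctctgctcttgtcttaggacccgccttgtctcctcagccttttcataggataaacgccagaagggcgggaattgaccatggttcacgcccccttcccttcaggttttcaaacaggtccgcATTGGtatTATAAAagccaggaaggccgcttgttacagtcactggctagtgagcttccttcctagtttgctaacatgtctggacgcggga
In the Hist1h2ae window the TATA box and the octamer lie on the opposite strand, 142 and 128 bases before the start, and read towards Hist1h2bg, whose gene begins 179 bases away. Hist1h1e and Hist1h1b each carry the AC box (115 and 117 bases before the start), a CCAAT box (52 and 53 bases) and a TATA box (27 and 28 bases) on their own strand. Hist1h1c has the AC box at 112 bases and the CCAAT box at 54 bases, and no TATAAA in this window.

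These letters were common among the histone genes. Windows were available for 49 of the 57 genes (50 windows, 1 gene having more than 1). CCAAT was found in 84% of them, against 37.4% of all 32851 promoter windows. TATAAA was found in 64% against 13.6%, and the octamer in 20% against 1.74%. All octamers were in H2A windows (6 of 13) and H2B windows (4 of 13), and the AC box was in 4 of 5 H1 windows against 7.18% of all windows. H4 windows stood out by having CCAAT in 3 of 11, where each window of the other types had it. A match is a description of the letters and does not show that a factor binds there.

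The 4 libraries held between 20349737 and 25100559 reads in genes, as recovered from the deposited values. Reads of the histone genes made up 0.0307% of them in irradiated cKO cells and 0.0285% in irradiated wild-type cells, against 0.0496% in steady-state cKO cells and 0.0548% in steady-state wild-type cells. Twist1 itself was too low to check the genotype labels, with 0 reads in the irradiated cKO library, 5 in the irradiated wild-type library, 2 in the steady-state cKO library and 6 in the steady-state wild-type library. Markers of the labelled cell type were lower after irradiation: of 8 stem cell identity genes at 5 FPKM or more, 7 were at least 2-fold lower in each genotype. Of all genes at that level, 22.6% were at least 2-fold lower in cKO and 18.9% in wild type. Procr, a surface marker of these stem cells, had 1.22 FPKM in irradiated cKO cells and 0.333 FPKM in irradiated wild-type cells, against 66.1 FPKM in steady-state cKO cells and 51.3 FPKM in steady-state wild-type cells. Erythroid genes summed to 15128 FPKM in irradiated cKO cells and 11051 FPKM in irradiated wild-type cells, against 1594 FPKM in steady-state cKO cells and 2900 FPKM in steady-state wild-type cells. Xist, a transcript of the inactive X chromosome, was higher in both irradiated libraries (0.573 FPKM in cKO and 1.0 FPKM in wild type, against 0.0155 and 0.0171 FPKM in cKO and wild type at steady state), and the Y-linked gene Ddx3y had 0.0164 and 0.0521 FPKM in irradiated cKO and wild type, against 12.4 and 10.2 FPKM in cKO and wild type at steady state. The labels give no sex, and irradiation cannot be told apart from this split of sex-linked transcripts.

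A few genes carried most of the histone signal. Of the 57, 19 reached 5 FPKM in at least 1 library and 11 reached 20 FPKM, while 38 stayed under 5 FPKM throughout. Hist1h2bc, an H2B gene, had 102 FPKM in irradiated cKO cells and 102 FPKM in irradiated wild-type cells, against 149 FPKM in steady-state cKO cells and 122 FPKM in steady-state wild-type cells. The 5 leading genes (Hist1h1e, Hist1h2ae, Hist1h4d, Hist1h2bc and Hist1h1c) held 56.5% of the summed histone FPKM in irradiated cKO cells and 55.5% in irradiated wild-type cells, against 70.4% in steady-state cKO cells and 78.6% in steady-state wild-type cells. The leading gene of a type was the same in all 4 libraries for H2A (Hist1h2ae), H2B (Hist1h2bc) and H4 (Hist1h4d), whereas that of H1 and of H3 depended on the library.

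**Figure D1:**
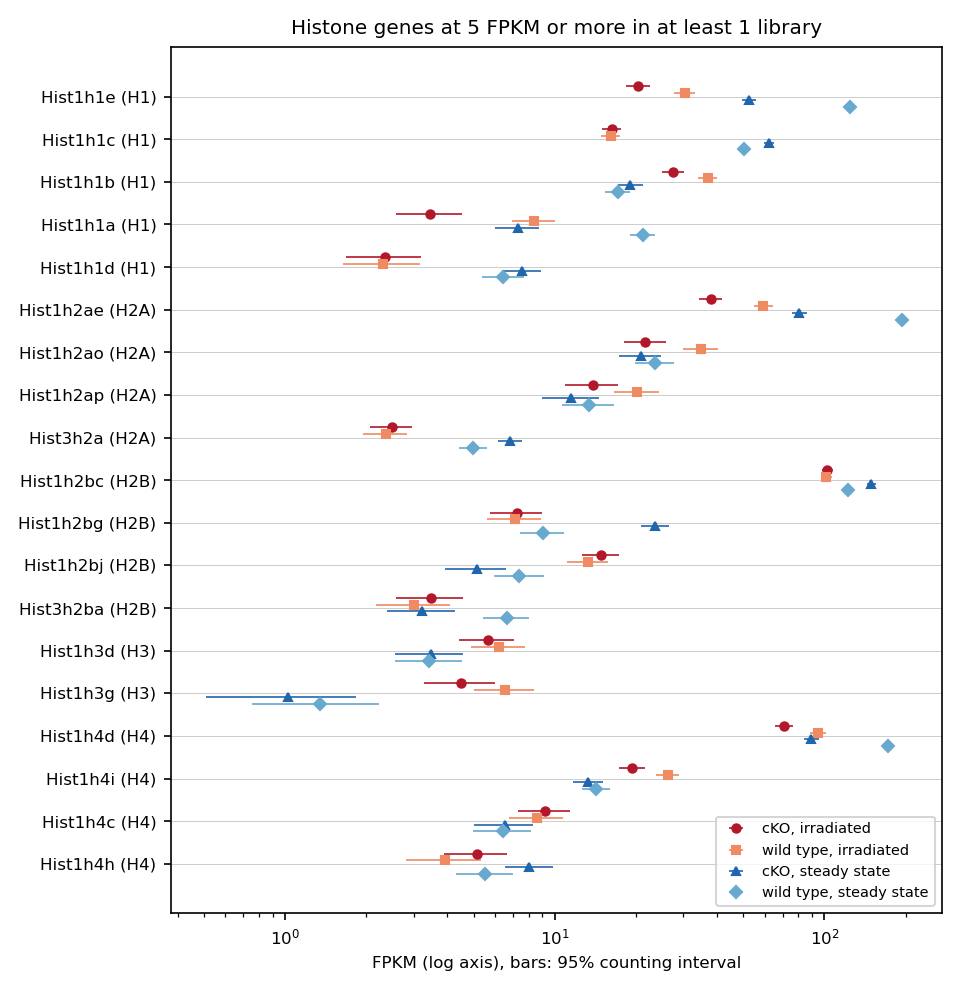
FPKM (log axis) of the 19 histone genes at 5 FPKM or more in at least 1 library, grouped by histone type, with 1 symbol per library and bars for the 95% counting interval. Hist1h1e, Hist1h2ae and Hist1h4d are highest in steady-state wild-type cells, while Hist1h1b, Hist1h3g and Hist1h2bj are higher in both irradiated libraries than in both steady-state libraries.

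Summed per type, H1 and H2A were lower after irradiation and H3 was higher, but the H2A sum turned on Hist1h2ae. The 5 H1 genes summed to 69.9 FPKM in irradiated cKO cells and 94.1 FPKM in irradiated wild-type cells, against 149 FPKM in steady-state cKO cells and 220 FPKM in steady-state wild-type cells. The 15 H2A genes summed to 90.4 FPKM in irradiated cKO cells and 134 FPKM in irradiated wild-type cells, against 135 FPKM in steady-state cKO cells and 249 FPKM in steady-state wild-type cells. Both sums were thus lowest in irradiated cKO cells and highest in steady-state wild-type cells. Without Hist1h2ae, left out after its values were seen, the other 14 H2A genes summed to 52.5 FPKM in irradiated cKO cells and 74.9 FPKM in irradiated wild-type cells, against 54.6 FPKM in steady-state cKO cells and 55.0 FPKM in steady-state wild-type cells. Irradiated wild-type cells were then the highest, with a log2 ratio to steady state of 0.44 (0.10 to 0.60 over the scalings), and the cKO ratio of −0.06 turned sign over the scalings (−0.21 to 0.36). The 10 H3 genes summed to 21.8 FPKM in irradiated cKO cells and 31.1 FPKM in irradiated wild-type cells, against 16.3 FPKM in steady-state cKO cells and 16.5 FPKM in steady-state wild-type cells, so the irradiated libraries were the higher ones. The 15 H2B genes varied least, with 143 FPKM in irradiated cKO cells and 142 FPKM in irradiated wild-type cells, against 191 FPKM in steady-state cKO cells and 155 FPKM in steady-state wild-type cells. The 12 H4 genes summed to 113 FPKM in irradiated cKO cells and 144 FPKM in irradiated wild-type cells, against 126 FPKM in steady-state cKO cells and 204 FPKM in steady-state wild-type cells. Without Hist1h4d the other 11 H4 genes summed higher after irradiation in both genotypes. They had 42.4 FPKM in irradiated cKO cells and 48.6 FPKM in irradiated wild-type cells, against 36.2 FPKM in steady-state cKO cells and 31.4 FPKM in steady-state wild-type cells. Without Hist1h2bc the other 14 H2B genes summed to 40.6 FPKM in irradiated cKO cells and 40.7 FPKM in irradiated wild-type cells. At steady state they had 41.7 FPKM in cKO cells and 33.1 FPKM in wild-type cells. Their direction under irradiation turned over the scalings in each genotype. For the full sums, the H1, H2A and H3 directions under irradiation held under all 4 other scalings tried. The H3 direction between the genotypes at steady state (log2 ratio −0.02, −0.02 to 0.18 over the scalings) turned. The H4 direction turned for irradiation in cKO cells (−0.15 as deposited, −0.31 to 0.26), the H2B direction for irradiation in wild-type cells (−0.12, −0.47 to 0.03) and the H4 direction between the genotypes after irradiation (−0.35, −0.35 to 0.05).

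**Figure D2:**
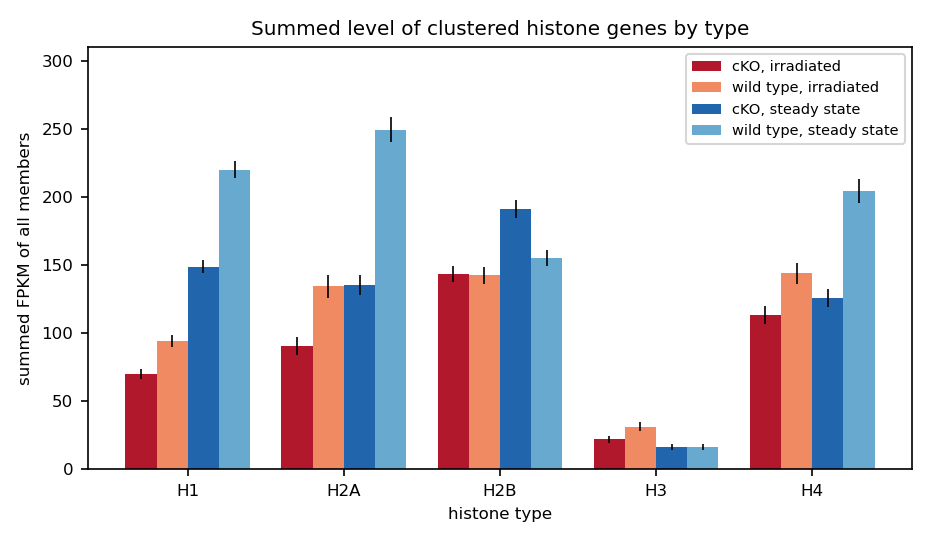
Summed FPKM of all clustered histone genes of each type in the 4 libraries, with bars for the 95% counting interval. H1 is lowest at 69.9 FPKM in irradiated cKO cells, and H3 stays at or below 31.1 FPKM in every library.

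The question of the steady-state comparison was how deletion of Twist1 bears on unirradiated stem cells. Among the histone genes, a small number of abundant ones were lower in cKO cells and 1 was higher. Hist1h2ae, the leading H2A gene, had 80.6 FPKM in cKO cells and 194 FPKM in wild-type cells, 2.41-fold lower (95% counting interval 2.23 to 2.60). Hist1h1e, which encodes linker histone H1.4, had 52.5 FPKM in cKO cells and 125 FPKM in wild-type cells, 2.38-fold lower (2.21 to 2.56). Hist1h1a, which encodes H1.1, had 7.28 FPKM in cKO cells and 21.2 FPKM in wild-type cells, 2.91-fold lower (2.36 to 3.61). Hist1h2bg, an H2B gene, was the exception at 23.5 FPKM in cKO cells and 9.02 FPKM in wild-type cells, 2.61-fold higher (2.09 to 3.27).

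Counted over genes whose higher library held at least 5 FPKM, with differences taken as log2 of FPKM + 1, 1 of 17 histone genes was at least 2-fold higher in steady-state cKO cells and 3 were at least 2-fold lower. Among all 7157 genes kept the shares were 0.643% higher and 2.7% lower. The median difference of the histone genes was −0.09, against 0.01 over all genes. Of all genes past 2-fold, 19.2% were higher in cKO, between 18.5% and 38.0% under other scalings. These 4 genes stayed past 2-fold under every alternative tried. Hist1h4d, the leading H4 gene, came next with 89.5 FPKM in cKO cells and 173 FPKM in wild-type cells, 1.93-fold lower (1.78 to 2.09). Hist3h2ba, an H2B gene of the Hist3 locus that overlaps the RefSeq gene Gm51864, had 3.23 FPKM in cKO cells and 6.63 FPKM in wild-type cells (log2 difference −0.85). Fewer cells of a type and less RNA per cell cannot be told apart in libraries of pooled cells.

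The lower histone sum of steady-state cKO cells (617 FPKM, against 845 FPKM in wild-type cells) lay in 3 abundant genes, picked after their values were seen. Hist1h1e, Hist1h2ae and Hist1h4d together had 223 FPKM in cKO cells and 492 FPKM in wild-type cells. The other 54 genes together had 394 FPKM in cKO cells and 353 FPKM in wild-type cells. Among these 54 were the abundant genes Hist1h2bc and Hist1h1c, which were higher in cKO cells. The FPKM of all genes also summed lower in cKO cells, with a log2 ratio of −0.34, against −0.45 for all 57 histone genes. Within H1, Hist1h1e and Hist1h1a were lower in cKO cells while 3 others were not. Hist1h1c, which encodes H1.2, had 62.2 FPKM in cKO cells and 50.2 FPKM in wild-type cells, and its ratio of 1.24 had an interval of 1.17 to 1.32. Hist1h1b (H1.5) had 19.1 FPKM in cKO cells and 17.1 FPKM in wild-type cells, and Hist1h1d (H1.3) 7.56 FPKM in cKO cells and 6.45 FPKM in wild-type cells, with intervals of the ratio that include 1. The H1 gene with the highest level was Hist1h1c in cKO cells (41.9% of the H1 sum) and Hist1h1e in wild-type cells (56.8%). These shares depend on the authors' gene length for Hist1h1c, implied as 1560 bases against a RefSeq span of 725. Markers of 4 other cell types differed in this comparison: neutrophil genes summed to 2710 FPKM in cKO cells and 1625 FPKM in wild-type cells (5 of 8 at least 2-fold higher), and macrophage and monocyte genes to 1306 FPKM in cKO cells and 2484 FPKM in wild-type cells (8 of 10 at least 2-fold lower). Erythroid genes summed to 1594 FPKM in cKO cells and 2900 FPKM in wild-type cells (4 of 11 at least 2-fold lower), and B and plasma cell genes to 3238 FPKM in cKO cells and 5751 FPKM in wild-type cells (1 of 7). Of all genes kept, 0.643% were at least 2-fold higher and 2.7% lower. None of the markers of these lists was at 0 in all libraries, and their part in the histone differences was not tested.

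After irradiation fewer histone genes were 2-fold apart between the genotypes, while the median difference was further from 0 (−0.41 after irradiation and −0.09 at steady state). Hist1h1a was again lower, with 3.45 FPKM in irradiated cKO cells and 8.37 FPKM in irradiated wild-type cells, 2.42-fold (1.74 to 3.42). Hist1h2ae had 37.9 FPKM in irradiated cKO cells and 59.4 FPKM in irradiated wild-type cells (log2 difference −0.63), Hist1h1e 20.4 FPKM in irradiated cKO cells and 30.4 FPKM in irradiated wild-type cells (−0.55), and Hist1h4d 70.6 FPKM in irradiated cKO cells and 95 FPKM in irradiated wild-type cells (−0.42). These 4 genes were thus lower in cKO cells in both conditions, with smaller log2 differences after irradiation than at steady state. The median over all genes kept was −0.45 after irradiation and 0.01 at steady state. After irradiation the differences of Hist1h2ae, Hist1h1e and Hist1h4d therefore lay near that of all genes. Hist3h2ba and Hist1h2bj, also lower in steady-state cKO cells, were not lower after irradiation (log2 differences of 0.15 for Hist1h2bj after irradiation and −0.45 at steady state), and Hist1h2ao had −0.66 after irradiation and −0.17 at steady state. Hist1h2bg did not keep its difference, with 7.24 FPKM in irradiated cKO cells and 7.10 FPKM in irradiated wild-type cells. Hist1h1c and Hist1h2bc were also level between the genotypes as deposited, with ratios of 1.01 (0.90 to 1.14) and 1.01 (0.94 to 1.08). These intervals leave out the scaling. Over the alternatives the log2 differences reached 0.39 for Hist1h1c and 0.40 for Hist1h2bc, and that of Hist1h4d ranged from −0.43 to −0.03.

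Of 16 histone genes kept in that comparison, 0 were at least 2-fold higher and 1 was at least 2-fold lower in irradiated cKO cells, beside 4.47% and 1.04% of all 6348 genes. The single call, Hist1h1a, was not called under 6 of 9 alternatives. The median was −0.41 for the histone genes and −0.45 for all genes, close to each other. Of all genes past 2-fold, 81.1% were higher in irradiated cKO, between 86.3% and 94.0% under other scalings. The H2A genes Hist1h2ao and Hist1h2ap had 21.7 and 13.8 FPKM in irradiated cKO cells, against 34.8 and 20.2 FPKM in irradiated wild-type cells. Their ratio to each other was between 1.57 and 1.81 in the 4 libraries, and since they are near-identical copies the division of reads between them is uncertain. Neutrophil genes (8 of 8), early myeloid genes (3 of 4), T and NK cell genes (4 of 5), macrophage and monocyte genes (5 of 11), B and plasma cell genes (3 of 7) and erythroid genes (6 of 13, with 1 lower) were at least 2-fold higher in irradiated cKO cells. Their part in the histone values was not tested.

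The change of the genotype difference with irradiation, taken as the difference after irradiation minus that at steady state, had a median of −0.18 over the 19 histone genes at 5 FPKM or more, against −0.40 over all 7772 genes at that level. Hist1h2bg lay lowest (−1.27) and Hist3h2ba highest (1.01). Of these 19 genes, 7 were higher in cKO in both conditions at any size and 8 lower in both, where the shares of all genes were 8.34% and 38.9%. Most of the 7 were close to even after irradiation. Hist1h2bc, Hist1h1c, Hist1h1d, Hist1h2bg and Hist3h2a had log2 differences between 0.01 and 0.05 there, Hist1h4c 0.09 and Hist1h4h 0.32. The wild-type and cKO libraries of each condition enter these values once, and no test of the difference was possible.

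**Figure D3:**
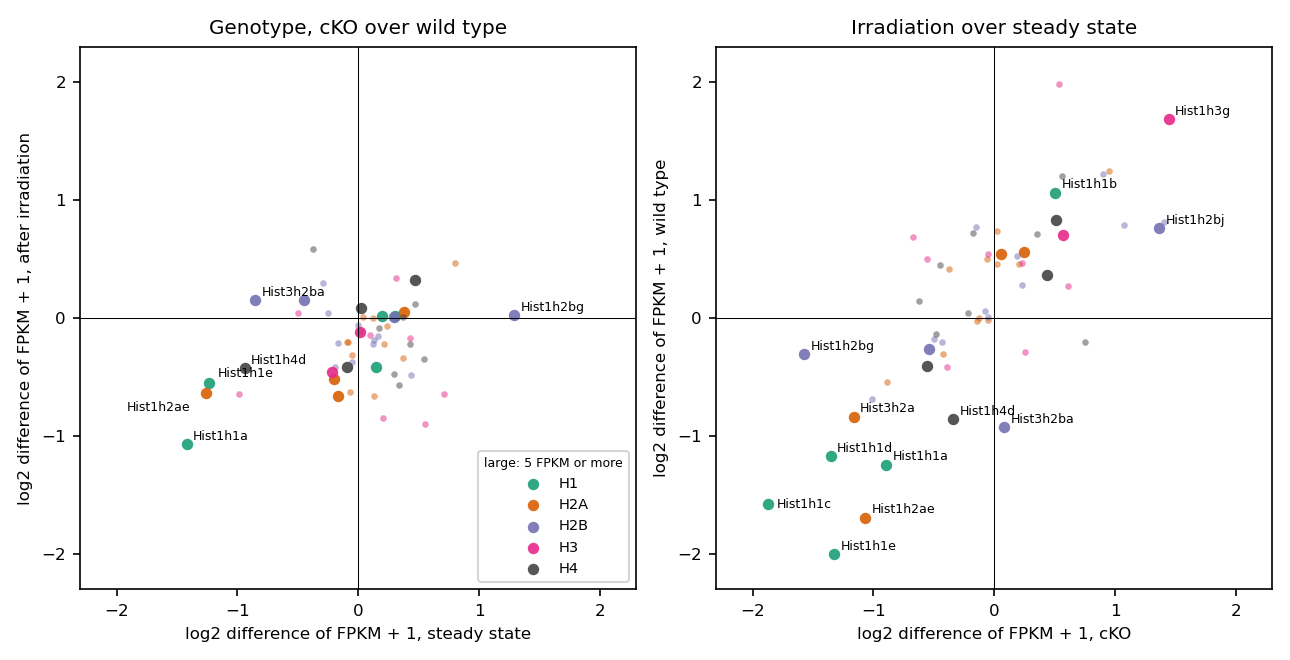
Log2 differences of FPKM + 1 for the 57 histone genes, coloured by type, with large points for genes at 5 FPKM or more in at least 1 library. The left panel sets the genotype difference after irradiation against that at steady state, and the right panel sets irradiation in wild type against irradiation in cKO. Hist1h1a, Hist1h1e and Hist1h2ae lie below 0 on both axes of both panels, and Hist1h2bg is high at steady state only.

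Irradiation was compared with steady state within each genotype, asking how the stem cells differed 12 days after the exposure. The linker histone genes gave the clearest pattern: 4 of 5 were lower and Hist1h1b was higher, in both genotypes. Hist1h1e had 20.4 FPKM in irradiated cKO cells against 52.5 FPKM in steady-state cKO cells, 2.58-fold lower (2.28 to 2.92), and 30.4 FPKM in irradiated wild-type cells against 125 FPKM in steady-state wild-type cells, 4.11-fold lower (3.73 to 4.53). Hist1h1c had 16.3 FPKM in irradiated cKO cells against 62.2 FPKM in steady-state cKO cells, 3.82-fold lower (3.49 to 4.19), and 16.1 FPKM in irradiated wild-type cells against 50.2 FPKM in steady-state wild-type cells, 3.11-fold lower (2.83 to 3.42). Both genes were thus lower in both irradiated libraries than in either steady-state library. Hist1h1d had 2.35 FPKM in irradiated cKO cells and 2.31 FPKM in irradiated wild-type cells, against 7.56 FPKM in steady-state cKO cells and 6.45 FPKM in steady-state wild-type cells. Hist1h1a was at least 2-fold lower on the log2 scale of FPKM + 1 in irradiated wild-type cells (−1.24) and had −0.89 in irradiated cKO cells.

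Hist1h1b went the other way. It had 27.5 FPKM in irradiated cKO cells against 19.1 FPKM in steady-state cKO cells, 1.44-fold higher (1.25 to 1.66), and 36.9 FPKM in irradiated wild-type cells against 17.1 FPKM in steady-state wild-type cells, 2.16-fold higher (1.88 to 2.47). Its share of the H1 sum was 39.3% in irradiated cKO cells and 39.2% in irradiated wild-type cells, against 12.8% in steady-state cKO cells and 7.79% in steady-state wild-type cells. By deposited FPKM, Hist1h1b was the highest H1 gene in both irradiated libraries and in neither steady-state library. This ranking and the shares depend on the authors' gene lengths. The length implied for Hist1h1c was 1560 bases, against a RefSeq span of 725. In irradiated cKO cells Hist1h1c had more reads (596) than Hist1h1b (479). In the windows shown above both Hist1h1b and Hist1h1e hold the AC box and the TATA box, with 3 CCAAT matches for Hist1h1b and 1 for Hist1h1e.

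**Figure D4:**
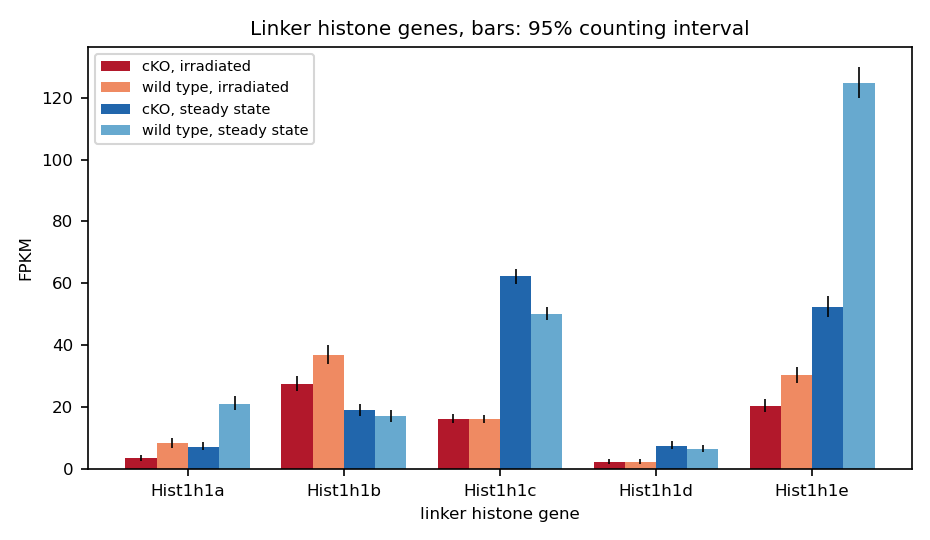
FPKM of the 5 linker histone genes in each library, with bars for the 95% counting interval. Hist1h1e and Hist1h1c are lower in both irradiated libraries, and Hist1h1b is higher there, reaching 36.9 FPKM in irradiated wild-type cells.

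Core histone genes were divided. Hist1h2ae had 37.9 FPKM in irradiated cKO cells against 80.6 FPKM in steady-state cKO cells, 2.13-fold lower (1.89 to 2.39), and 59.4 FPKM in irradiated wild-type cells against 194 FPKM in steady-state wild-type cells, 3.27-fold lower (2.99 to 3.58). Hist1h3g, an H3 gene, had 4.49 FPKM in irradiated cKO cells and 6.56 FPKM in irradiated wild-type cells, against 1.02 FPKM in steady-state cKO cells and 1.35 FPKM in steady-state wild-type cells, a ratio of 4.4 (2.24 to 9.44) in cKO and 4.86 (2.73 to 9.20) in wild type. Hist1h2bj, an H2B gene, had 14.8 FPKM in irradiated cKO cells and 13.3 FPKM in irradiated wild-type cells, against 5.13 FPKM in steady-state cKO cells and 7.38 FPKM in steady-state wild-type cells. For each of these genes both irradiated libraries lay on one side of both steady-state libraries. Hist1h2bg was lower in irradiated cKO cells (7.24 FPKM, against 23.5 FPKM in steady-state cKO cells) but close in wild type (7.10 FPKM irradiated, against 9.02 FPKM at steady state). Hist3h2a, an H2A gene that overlaps Trim17, had 2.48 FPKM in irradiated cKO cells and 2.36 FPKM in irradiated wild-type cells, against 6.81 FPKM in steady-state cKO cells and 4.99 FPKM in steady-state wild-type cells. Among H4 genes, Hist1h4d was lower in irradiated wild-type cells (log2 difference −0.86) and Hist1h4i higher, at 26.2 FPKM irradiated against 14.3 FPKM at steady state.

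In cKO cells, 17 histone genes were kept, of which 1 was at least 2-fold higher after irradiation (Hist1h2bj) and 6 at least 2-fold lower (Hist1h1c, Hist1h2bg, Hist1h1d, Hist1h1e, Hist3h2a and Hist1h2ae). Over all 7393 genes the shares were 10.3% higher and 22.6% lower, and the median difference was −0.54 for histone genes and −0.20 for all genes. With the upper quartile the histone median turned to 0.29 and that of all genes to 0.25. In wild-type cells, 18 were kept, with 2 at least 2-fold higher (Hist1h3g and Hist1h1b) and 5 at least 2-fold lower (Hist1h1e, Hist1h2ae, Hist1h1c, Hist1h1a and Hist1h1d). The shares of all 7418 genes were 18.9% higher and 18.9% lower, with medians of −0.28 for histone genes and 0.21 for all genes. Of all genes past 2-fold, 31.3% were higher in cKO cells, but between 23.9% and 59.2% under other scalings, and 49.98% were higher in wild-type cells, between 24.6% and 59.8% under other scalings. The 2-fold calls that held under every alternative were Hist1h1c in both genotypes, Hist1h2bg in cKO cells, and Hist1h1e and Hist1h2ae in wild-type cells. The sign agreed between genotypes for 18 of the 19 genes at 5 FPKM or more, 8 being higher and 10 lower after irradiation in both; of all genes, 39.2% were higher and 40.4% lower in both.

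In wild-type cells the direction under irradiation differed between groups of neighbouring genes of the Hist1 locus on chromosome 13; in cKO cells the first group lay near the share of all genes. In wild-type cells, 16 of the 17 members lying between 21715711 and 21837530 (GRCm38) were higher after irradiation at any size, as were 5 of the 5 between 22035122 and 22043658. Of the 25 between 23531044 and 23764412, 10 were higher. Over all 26765 genes above 0 the share was 51.6%. Some directions in the first group rest on few reads. Hist1h2br had 1 read in each wild-type library, and Hist1h2bq had 4 irradiated against 2 at steady state. The 4 H1 genes that were lower lie in the last of these groups and Hist1h1b lies in the first. In cKO cells the corresponding counts were 9 of 17, 5 of 5 and 8 of 25, beside 55.1% of all genes. The wild-type counts lay between 14 and 16, at 5, and between 10 and 11 under the other scalings; the cKO counts between 8 and 11, 4 and 5, and 7 and 12. Between the genotypes after irradiation, 1 of the 17 in the first group was higher in cKO, where 52.8% of all genes above 0 were. The group's median difference was −0.35. That of all genes was 0.02 above 0 FPKM but −0.31 at 1 FPKM or more. The groups also differ in level, since 2 of 17, 2 of 5 and 12 of 25 members reached 5 FPKM, and neighbouring copies can share reads; the part of either was not tested.

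**Figure D5:**
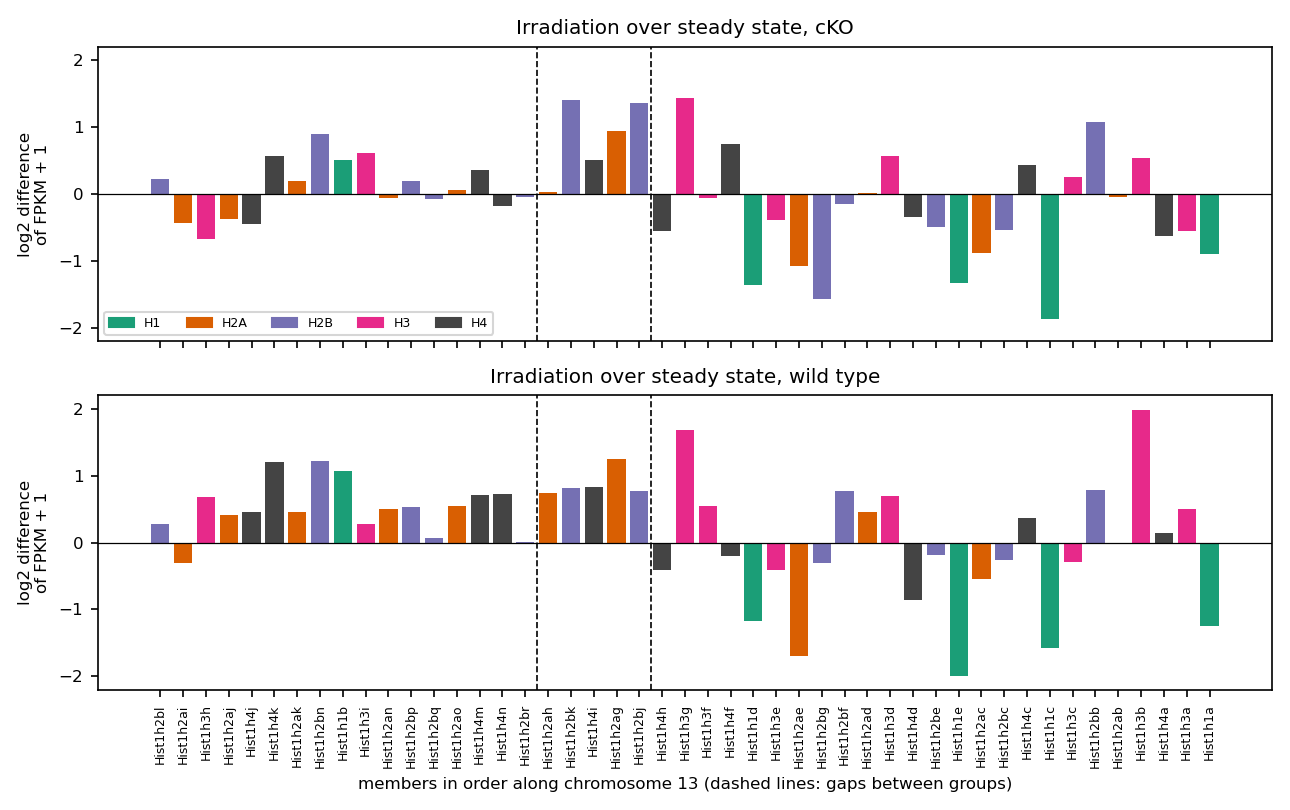
Log2 differences of FPKM + 1 after irradiation for the histone genes of chromosome 13 in their order along it, coloured by type, in cKO (top) and wild type (bottom). In wild type 16 of the first 17 genes and all 5 of the next group lie above 0, while Hist1h1d, Hist1h2ae, Hist1h1e, Hist1h1c and Hist1h1a in the last group lie below −1. Some of the first 17 rest on few reads, such as Hist1h2br with 1 read in each wild-type library.

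There were 11 adjacent pairs of an H2A and an H2B gene less than 400 bases apart, 8 of them shown by the RefSeq starts to be transcribed away from each other. Hist1h2ae and Hist1h2bg were the one pair with both genes at 5 FPKM or more, and directions in the other pairs rest on a gene with few reads and are not given. The ratio of Hist1h2ae to Hist1h2bg, per length, was 5.24 in irradiated cKO cells and 8.36 in irradiated wild-type cells, against 3.43 in steady-state cKO cells and 21.5 in steady-state wild-type cells. In another pair the H2B gene was the higher one: the level of Hist1h2bc was between 49.9 and 179 times that of its neighbour Hist1h2ac. Hist1h2ac had at most 3.0 FPKM, and the ratio of 179, in irradiated wild-type cells, rests on 6 reads of it.

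The 38 genes under 5 FPKM summed to 50.02 FPKM in irradiated cKO cells and 63.0 FPKM in irradiated wild-type cells, against 45.6 FPKM in steady-state cKO cells and 40.1 FPKM in steady-state wild-type cells. Each rested on at most 182 reads in a library. At any size, 16 of them were higher after irradiation in cKO, beside 55.1% of all genes, and 26 in wild type, beside 51.6%. Between the genotypes, 9 were higher in cKO after irradiation, beside 52.8% of all genes, and 26 at steady state, beside 56.2%. The background after irradiation depended on level. The median difference of all genes was 0.02 above 0 FPKM and −0.31 at 1 FPKM or more, so genes outside the histones were mostly lower there too. Hist1h2ab, an H2A gene, was close to even, at 4.42 FPKM in irradiated cKO cells and 4.39 FPKM in irradiated wild-type cells, against 4.61 FPKM in steady-state cKO cells and 4.47 FPKM in steady-state wild-type cells. Hist1h3b, an H3 gene, had 1.65 FPKM in irradiated cKO cells and 3.93 FPKM in irradiated wild-type cells, against 0.831 FPKM in steady-state cKO cells and 0.248 FPKM in steady-state wild-type cells. Both genes were picked here after their values were seen, as was Hist1h2ac above.

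Of 18 genes of histone mRNA synthesis and processing kept in each genotype comparison, 0 were at least 2-fold apart, where the shares of all genes were small too (4.47% higher and 1.04% lower after irradiation, 0.643% and 2.7% at steady state). At any size, 22 of 23 were lower in irradiated cKO cells and 10 of 23 in steady-state cKO cells. Of all genes above 0, 52.8% were higher in cKO after irradiation and 56.2% at steady state. Medians over the genes kept were −0.50 after irradiation (−0.50 to −0.13 over the scalings) and 0.01 at steady state. Those of all genes kept were close, at −0.45 and 0.01. Slbp, which binds the histone stem-loop, had 63.8 FPKM in irradiated cKO cells and 81.2 FPKM in irradiated wild-type cells, against 44.3 FPKM in steady-state cKO cells and 42.9 FPKM in steady-state wild-type cells. Npat, the coactivator of histone transcription, had 2.64 FPKM in irradiated cKO cells and 3.39 FPKM in irradiated wild-type cells, against 4.02 FPKM in steady-state cKO cells and 3.04 FPKM in steady-state wild-type cells. Slbp was therefore higher in both irradiated libraries, while Npat was low throughout. Under irradiation, 2 of 19 were at least 2-fold higher in cKO (Ccne1 and Ccne2, cyclins of the start of DNA synthesis). In wild type 3 of 18 were (Ccne1, the Lsm ring gene Lsm4 and the cap-binding gene Ncbp1). These counts lay near the shares of all genes, 10.3% in cKO and 18.9% in wild type. Medians were 0.19 in cKO and 0.82 in wild type, against −0.20 and 0.21 over all genes. Lsm10, a subunit of the U7 particle that cuts histone mRNA, had differences of −0.08 in cKO and 0.45 in wild type.

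A share of the genes of DNA synthesis was higher after irradiation. Of 29 S-phase genes, 6 in cKO (median 0.57) and 16 in wild type (median 1.03) were at least 2-fold higher and 0 lower, beside 10.3% of all genes higher in cKO and 18.9% in wild type, and over the scalings the counts were 2 to 13 in cKO and 10 to 20 in wild type. Mcm5, a subunit of the replicative helicase, had 82.1 FPKM in irradiated cKO cells and 119 FPKM in irradiated wild-type cells, against 45.1 FPKM in steady-state cKO cells and 44.4 FPKM in steady-state wild-type cells. Genes of G2 and mitosis were at least 2-fold higher in 13 of 21 cases in cKO (median 1.10) and 17 of 22 in wild type (median 1.59). Between the genotypes, 0 of either list were at least 2-fold apart in either condition. Few of all genes were either, with 4.47% higher and 1.04% lower after irradiation and 0.643% and 2.7% at steady state. Histone chaperones, which carry histones to and from DNA, had 2 higher and 2 lower of 24 in cKO (median 0.24, −0.02 with the 50 most abundant genes left out) and 9 higher of 25 in wild type (median 0.74). Asf1b, a chaperone of H3 and H4, had 92.9 FPKM in irradiated cKO cells and 122 FPKM in irradiated wild-type cells, against 36.8 FPKM in steady-state cKO cells and 35.8 FPKM in steady-state wild-type cells.

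Variant histone genes outside the clusters mostly carry poly(A) tails and are used outside DNA synthesis too, and H3f3b and H2afz were far above the clustered genes of their type. H3f3b, which encodes H3.3, had 762 FPKM in irradiated cKO cells and 1025 FPKM in irradiated wild-type cells, against 1863 FPKM in steady-state cKO cells and 1518 FPKM in steady-state wild-type cells. Per length, that was 34.9 times the sum of all clustered H3 genes in irradiated cKO cells and 33.0 times in irradiated wild-type cells, against 114 times in steady-state cKO cells and 91.9 times in steady-state wild-type cells. Since the labels do not say how RNA was selected, mRNAs without a poly(A) tail may be captured less. The part of this in the ratios was not tested. H2afz, which encodes H2A.Z, had 1244 FPKM in irradiated cKO cells and 2194 FPKM in irradiated wild-type cells, against 619 FPKM in steady-state cKO cells and 717 FPKM in steady-state wild-type cells. H1f0, the linker histone of cells that no longer divide, had 32.5 FPKM in irradiated cKO cells and 37.3 FPKM in irradiated wild-type cells, against 158 FPKM in steady-state cKO cells and 126 FPKM in steady-state wild-type cells, lower as Hist1h1c and Hist1h1e were. Of 10 variant genes kept, 2 were at least 2-fold higher and 3 lower after irradiation in cKO, and 3 higher and 1 lower in wild type. Beside these and the chaperone counts, the shares of all genes were 10.3% higher and 22.6% lower in cKO, and 18.9% higher and 18.9% lower in wild type. Between the genotypes 0 variant genes were 2-fold apart in either condition, where the shares of all genes were small too. Those were 4.47% higher and 1.04% lower after irradiation, and 0.643% and 2.7% at steady state.

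Markers of other cells also differed with irradiation. Erythroid genes were at least 2-fold higher in 13 of 13 cases in cKO and 12 of 12 in wild type, and megakaryocyte genes at least 2-fold lower in 6 of 6 in each. Early myeloid genes were at least 2-fold lower in 4 of 4 in each. Of 7 B and plasma cell genes, 2 in cKO and 6 in wild type were at least 2-fold lower. Their sum was higher in irradiated cKO cells (4606 FPKM, against 3238 FPKM at steady state). In wild type it was lower (1600 FPKM irradiated, against 5751 FPKM at steady state). Of all genes, 10.3% were higher and 22.6% lower in cKO, and 18.9% higher and 18.9% lower in wild type. Macrophage and monocyte genes summed to 2551 FPKM in irradiated cKO cells and 1296 FPKM in irradiated wild-type cells, against 1306 FPKM in steady-state cKO cells and 2484 FPKM in steady-state wild-type cells. The part of any of these markers in the histone values was not tested.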

How the data were processed

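RNA-seq was analysed in 4 libraries, 1 per group; the 2 ATAC-seq samples were not analysed here, nor were 12 further symbols of the name table. The deposited values are FPKM per gene made by the authors, per the file headers. Per the submitters' processing notes the series used mm10, HOMER, MACS2 2.1.0, Bowtie and BWA 0.7.12-r1039. Which of them made the FPKM, and whether counting used strand, was not stated. Symbols were joined to 30231 of 30409 identifiers. Positions came from RefSeq (GRCm38.p6) for 56 of the 57 genes; Hist1h2ap could not be placed.

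Differences are log2 of FPKM + 1, which understates changes of low genes. Genes were kept at 5 FPKM in the higher library and called at 2-fold. Reads were recovered by searching, gene by gene, for whole numbers in proportion to the 4 values after scaling for library size (tolerance 0.0002 reads plus rounding of the values), multiplied up until the implied gene length was whole, with library sizes of 23450734 (irradiated cKO), 22146433 (irradiated wild type), 25239648 (steady-state cKO) and 26031985 (steady-state wild type) that the authors' values imply. On simulated data all reads were exact for 96.4% to 96.5% of genes with 30 or more reads, and 200 of 200 genes changed 4-fold were called in each comparison. Intervals are 95% Clopper-Pearson for FPKM and conditional exact binomial for ratios. For only 37 of the 57 genes was the recovered length within 20% of the RefSeq span, so FPKM levels of the others depend on the authors' gene model. No test was possible with 1 library per group. The members and lists were chosen with earlier results of these data known. Genes were named if they reached 20 FPKM, were among the 3 highest or lowest differences of a comparison, led their type or encoded H1, with up to 4 genes of largest difference per other list and comparison and a fixed set that includes Slbp, Npat, Lsm10, H2afz, H3f3b, H1f0 and Mcm5. Alternatives were pseudocounts of 0.1 and 5, minima of 1 and 20 FPKM and none, and 4 other scalings (recovered read totals, the upper quartile, the median of ratios, and totals without the 50 most abundant genes). Python 3.11.15, numpy 2.4.6, pandas 2.3.3, scipy 1.17.1 and matplotlib 3.10.9 were used.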

Additional observations from a re-analysis of the deposited data

How the results depend on the processing

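At steady state the 4 histone genes called between cKO and wild type stayed past 2-fold under every alternative, and 2 instead of 1 were called higher with the 50 most abundant genes left out. The single gene called lower in irradiated cKO against irradiated wild type was lost (0 called) with a pseudocount of 5, a minimum of 20 FPKM, the median of ratios, the upper quartile, the 50 most abundant genes left out and recovered read totals. The median there, −0.41, was 0.15 with the upper quartile and 0.24 without the 50 most abundant genes, while the median of all genes ranged from −0.45 as deposited to −0.06 over the scalings. For irradiation in cKO (1 higher, 6 lower) the count higher was 0 with a pseudocount of 5 or a minimum of 20 FPKM, 4 with a minimum of 1 FPKM or none, 2 with the median of ratios, 4 with the upper quartile and 4 without the 50 most abundant genes; the count lower was 3 with a pseudocount of 5 and 3 with the upper quartile. For irradiation in wild type (2 higher, 5 lower) the count higher was 0 with a pseudocount of 5, 6 with a minimum of 1 FPKM or none, and 1 with a minimum of 20 FPKM, without the 50 most abundant genes or with recovered read totals; the count lower was 3 with a pseudocount of 5 and 8 without the 50 most abundant genes. A higher pseudocount shrinks differences of low genes and another minimum changes the number of genes kept, 8 with 20 FPKM and 57 with none in irradiated against steady-state cKO; for the scalings the cause was not tested. Over the 9 alternatives, Hist1h1a, Hist1h1b, Hist1h1d and Hist1h3g lost a 2-fold call in wild type under at least 1, and Hist1h1d, Hist1h1e, Hist1h2ae, Hist1h2bj and Hist3h2a in cKO. The median of all genes ranged from −0.42 to 0.25 for irradiation in cKO and from −0.24 to 0.38 in wild type over the scalings. The sign turned for Hist1h2ao and Hist1h4d (irradiation in cKO), Hist1h2ao and Hist1h4i (genotype at steady state) and Hist1h3d (genotype after irradiation). The median of the histone genes also changed sign at steady state (−0.09 as deposited; 0.03 with a minimum of 1 FPKM or recovered read totals, 0.12 with no minimum, 0.19 without the 50 most abundant genes), for irradiation in wild type (−0.28; 0.46 with a minimum of 1 FPKM, 0.32 with none) and for irradiation in cKO (−0.54; 0.29 with the upper quartile). Leaving out Hist1h2ao and Hist1h2ap, chosen after seeing the data, gave medians of 0.02 between the genotypes at steady state, −0.27 after irradiation, and −0.56 and −0.36 for irradiation in cKO and wild type. No paired analysis was possible because each group held 1 library. Depth limits the genes under 5 FPKM, which rested on at most 182 reads.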
